A study of Homo sapiens with 4 samples.

Results

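The genes described are 9 enzyme genes that move carbon between pyruvate, malate, isocitrate, 2-oxoglutarate, glutamate and aspartate: the malic enzyme genes ME1, ME2 and ME3, the NADP-dependent isocitrate dehydrogenase genes IDH1 and IDH2, the pyruvate carboxylase gene PC, the glutamate dehydrogenase gene GLUD1, and the aspartate transaminase genes GOT1 and GOT2. They were chosen by gene symbol, with earlier results of these data known. All 9 were found among the 17215 genes of the deposited table. The samples were 2 RNA sequencing libraries of Cal51, a human triple-negative breast cancer cell line, and 2 of Cal51R, its derivative with resistance to doxorubicin, a topoisomerase II poison of the anthracycline class. No label states the doxorubicin dose, how long selection lasted, whether drug was present at harvest or how many clones Cal51R came from, and the labels name no engineered allele in either line. The study looked for deubiquitinases tied to the resistance, and the comparison used here is Cal51R against Cal51.

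Malic enzymes turn malate into pyruvate and reduce NADP or NAD. ME1 does this in the cytosol with NADP, ME2 in mitochondria with NAD or NADP, and ME3 in mitochondria with NADP. IDH1, in the cytosol and peroxisomes, and IDH2, in mitochondria, oxidise isocitrate to 2-oxoglutarate and make NADPH, which cells use for lipid synthesis and to keep glutathione and thioredoxin reduced. PC, GLUD1 and the transaminases refill the tricarboxylic acid (TCA) cycle or drain it: PC makes oxaloacetate from pyruvate, GLUD1 makes 2-oxoglutarate from glutamate, and GOT1 in the cytosol and GOT2 in mitochondria exchange amino groups between glutamate and aspartate and form part of the malate-aspartate shuttle.

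RefSeq promoter windows (build GRCh38.p14, 250 bases before to 50 after an annotated start) were found for all 9 genes, 14 windows in all. Those shown belong to the malic enzyme genes, among which ME3 passed ME2 in level per transcript length in Cal51R, and to IDH1, as an example of a gene that fell. Capitals mark matches, on either strand, to TGACNNNGC (the core of the antioxidant response element, bound by NRF2), TGATGNAA (the core of the element bound by ATF4) or CCAAT (the CCAAT box). Of 35116 promoter windows of this length, 13.3% hold the first, 3.62% the second and 34.6% the third. The ME1 window lies at chr6:83431002-83431301 (minus strand), that of ME2 at chr18:50878868-50879167 (plus strand), those of the first and the third ME3 start at chr11:86672567-86672866 and chr11:86672126-86672425 (minus strand), and that of the first IDH1 start at chr2:208255022-208255321 (minus strand).
ME1: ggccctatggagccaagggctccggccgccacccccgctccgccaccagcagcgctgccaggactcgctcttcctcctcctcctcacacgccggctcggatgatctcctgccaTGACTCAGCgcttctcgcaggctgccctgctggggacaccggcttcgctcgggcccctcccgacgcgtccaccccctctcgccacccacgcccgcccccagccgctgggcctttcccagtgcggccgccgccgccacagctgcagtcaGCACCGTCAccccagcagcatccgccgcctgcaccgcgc
ME2: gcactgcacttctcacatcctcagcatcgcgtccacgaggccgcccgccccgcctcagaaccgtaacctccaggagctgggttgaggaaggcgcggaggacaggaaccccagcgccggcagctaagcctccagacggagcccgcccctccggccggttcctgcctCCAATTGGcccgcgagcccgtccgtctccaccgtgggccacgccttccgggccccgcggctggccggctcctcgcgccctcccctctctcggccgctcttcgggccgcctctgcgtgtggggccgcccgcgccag
ME3, start 1: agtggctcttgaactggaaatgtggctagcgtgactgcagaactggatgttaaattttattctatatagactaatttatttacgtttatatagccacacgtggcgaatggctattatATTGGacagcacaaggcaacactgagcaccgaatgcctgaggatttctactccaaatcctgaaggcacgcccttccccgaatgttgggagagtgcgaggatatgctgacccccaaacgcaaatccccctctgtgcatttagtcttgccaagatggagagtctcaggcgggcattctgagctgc
ME3, start 3: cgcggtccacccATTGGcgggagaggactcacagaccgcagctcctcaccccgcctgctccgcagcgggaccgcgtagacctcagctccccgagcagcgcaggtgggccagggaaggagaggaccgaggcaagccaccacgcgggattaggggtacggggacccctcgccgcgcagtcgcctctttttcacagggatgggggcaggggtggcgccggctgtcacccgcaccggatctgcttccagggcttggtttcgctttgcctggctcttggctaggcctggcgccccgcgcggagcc
IDH1, start 1: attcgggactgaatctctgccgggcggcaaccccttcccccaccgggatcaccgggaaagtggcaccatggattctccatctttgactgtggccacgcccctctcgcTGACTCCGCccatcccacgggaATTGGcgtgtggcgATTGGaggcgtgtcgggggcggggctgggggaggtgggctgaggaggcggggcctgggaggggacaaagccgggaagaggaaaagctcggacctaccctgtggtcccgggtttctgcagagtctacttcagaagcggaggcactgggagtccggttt

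The ME1 window held 2 matches to the antioxidant response element core, at 137 bases before the start (TGACTCAGC) and, on the other strand, at 11 bases after it. In ME2 the 2 CCAAT matches, on opposite strands, overlap each other. No ME3 window matched TGACNNNGC or TGATGNAA. The windows of ME3 starts 1 and 2 each held 1 match to the E-box CACGTG, and each of the 3 windows held 1 CCAAT match, those of starts 2 and 3 being the same site, since these windows overlap. The IDH1 window held TGACTCCGC at 143 bases before the start and 2 CCAAT matches. Outside the windows shown, GOT2 held TGACGTGGC at 56 bases before its start and GOT1 held a match to TGATGNAA. That IDH1 match overlaps a match to the GC box GGGCGG, which was also searched, as were the E-box and TGACGTCA (in 45.0%, 7.26% and 1.85% of all windows). The ratio of observed to expected CpG was 0.822 for ME1 and 0.894 for ME2, and 0.596 at the first and 0.755 at the third start of ME3, against a median of 0.579 over all windows. A match is a description of the letters and not a binding site.

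Among the 9 genes, ME3 rose from near the limit of detection and PC rose, while IDH2, IDH1, ME2 and GOT2 fell. GLUD1 was slightly lower on the scale used, GOT1 did not pass the test, and ME1 was barely detected in either line. Levels are given as CPM, counts scaled to library size with TMM factors, a scaling that corrects library totals for differences in composition, and a gene passed when its p-value in edgeR's quasi-likelihood test, adjusted over all 13674 genes tested, was under 0.05. Of the 8 genes tested, 7 passed, 2 higher and 5 lower in Cal51R. Over all genes tested 70.8% passed, 35.3% higher and 35.5% lower. At least 2-fold, 4 of the 8 passed, against 23.6% of all genes tested, and the libraries of the lines did not overlap in 7 of the 8, against 85.0%. The median log2 fold change was -0.34 for the 8 genes and 0.02 for all genes tested, and the median size of the change was 1.01 against 0.50. Since the genes were chosen with earlier results of these data known, these comparisons describe them and test nothing.

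Depth ran from 17852379 to 21636996 estimated reads per library, and detection was taken to begin above 3 reads, or 0.139 to 0.174 CPM. Whether the libraries of a line stem from different cultures is not stated, so the p-values rest on a spread between libraries that may be technical. In extracts of whole cultures, fewer cells that express a gene and less RNA per cell cannot be told apart. All 5 simple epithelial markers were in the table, with a summed level of 12553 and 14326 CPM in Cal51 and 6956 and 5808 CPM in Cal51R. Nearly all of it was the keratin genes KRT8 and KRT18, while the epithelial cadherin gene CDH1 was low, with 1.11 ± 0.171 CPM in Cal51 against 2.34 ± 0.829 CPM in Cal51R (values with ± are mean ± SD over the 2 libraries of a line). KRT8, KRT18 and EPCAM passed as lower, EPCAM from 181 ± 0.924 to 76.3 ± 0.447 CPM. CDH1 passed as higher, as did another keratin gene of that list, KRT19, from 3.43 ± 0.0848 to 80.6 ± 3.72 CPM. The 4 mesenchymal markers summed to 772 and 772 CPM and to 1719 and 1777 CPM. Within that list FN1 went from 243 ± 29.0 to 1380.4 ± 42.0 CPM, while VIM and CDH2 passed as lower, with log2 fold changes of -0.58 and -2.98, and ZEB1 had one of 0.25. The oestrogen receptor gene ESR1 was low in both lines, at 1.34 ± 0.332 and 2.17 ± 0.600 CPM, and the HER2 gene ERBB2 was detected in both, at 171 ± 0.606 and 158 ± 17.5 CPM. The 4 blood cell markers in the table summed to 12.1 and 11.7 CPM in Cal51 and 2.33 and 2.64 CPM in Cal51R, with 1 read of the T cell gene CD3E in 1 library and 0 in the others. Most of that sum was CD68, at 11.4 ± 0.280 and 1.69 ± 0.365 CPM, while the leukocyte gene PTPRC passed as higher from a low level, at 0.210 ± 0.0506 and 0.596 ± 0.0562 CPM. The 3 endothelial markers summed to 57.0 and 53.5 CPM and to 139 and 146 CPM, nearly all from PECAM1. The part of these shifts in the results below was not tested.

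**Figure D1:**
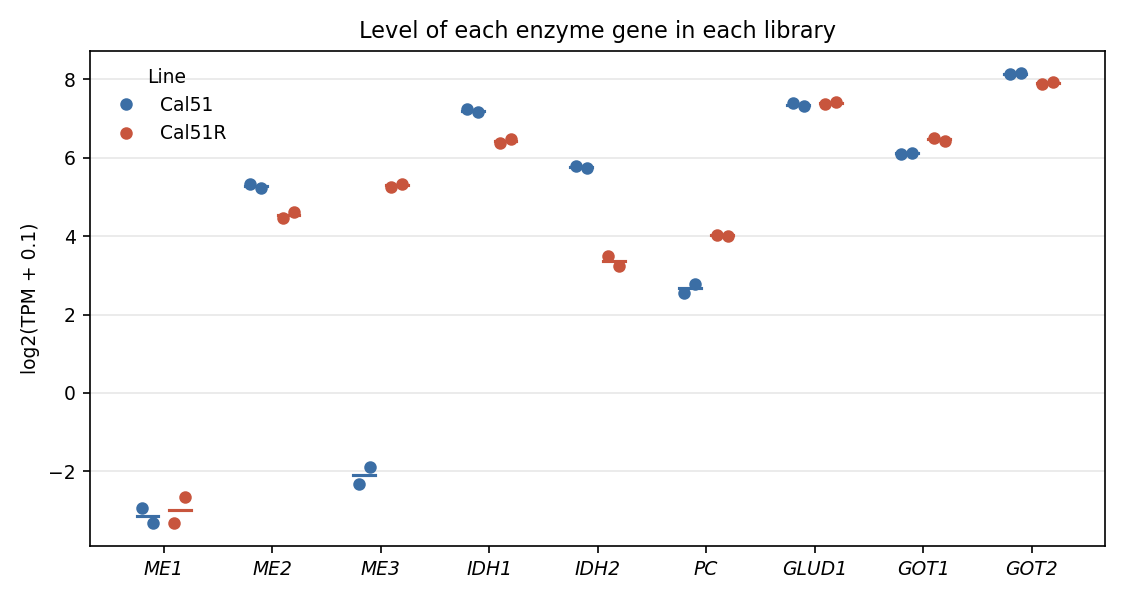
Level of each of the 9 genes in each library, as log2(TPM + 0.1), with the 2 libraries of a line as points and their mean as a bar. ME3 lies near the bottom in Cal51 and beside ME2 in Cal51R, and ME1 is at the bottom in all 4 libraries.

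Among the malic enzymes, ME3 (gene 10873, chromosome 11, 86434930 to 86672616, minus strand) was covered by 2 and 3 reads in Cal51 and by 632 and 709 in Cal51R. Both Cal51 libraries were thus at or under the detection limit and both Cal51R libraries far above it. In CPM this was 0.0984 and 0.174 against 33.5 and 32.9. The ratio of the summed reads was 249 with an exact 95% counting interval of 106 to 768, and the fitted log2 fold change was 7.89 (standard error 0.23, adjusted p = 3.71e-14 by edgeR). With 2 and 3 reads in Cal51, that standard error implies a narrower range than the counting interval and understates the uncertainty of the fold. This was the 23rd largest rise among the genes tested, and 0.607% of them had a larger change in either direction. On log2(FPKM + 1) the fold change was 4.08, since the pseudocount compresses changes from near 0.

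ME2 (gene 4200, chromosome 18, 50879118 to 50954257, plus strand) had 168 and 166 CPM in Cal51 and 82.0 and 85.6 CPM in Cal51R. Every Cal51R library was below every Cal51 library. It fell 1.99-fold, a log2 fold change of -0.99 (standard error 0.07, adjusted p = 4.31e-09 by edgeR). ME1 (gene 4199, chromosome 6, 83210402 to 83431051, minus strand) was covered by 1 and 0 reads in Cal51 and by 0 and 1 in Cal51R. It lay under the limit of detection in all 4 libraries and was left out of the test, and no fold change can be given. With low counts kept in, it did not pass (adjusted p = 0.974 by edgeR).

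Per transcript length the malic enzymes changed places. TPM values as deposited by the authors, which count transcripts relative to their length and to all transcripts of a library, allow levels of different genes to be set side by side. ME2 had 40.1 and 37.5 TPM in Cal51 and 21.8 and 24.4 TPM in Cal51R, while ME3 had 0.10 and 0.17 TPM and 38.2 and 40.0 TPM. ME2 thus made up 99.6% ± 0.0905 of malic enzyme TPM in Cal51 and 37.1% ± 1.11 in Cal51R, and ME3 0.350% ± 0.143 and 62.9% ± 1.17. In Cal51R the TPM of ME3 was 1.75 and 1.64 times that of ME2. The sum of the 3 genes was 38.9 ± 1.79 TPM in Cal51 and 62.2 ± 3.12 TPM in Cal51R, higher in each Cal51R library than in each Cal51 library. By reads the sum went the other way, since in mean CPM ME2 fell from 167 to 83.8 and ME3 rose from 0.136 to 33.2. The rise of the sum in TPM thus rests on dividing by transcript length. The shares are ratios within a library and do not depend on how libraries are scaled, while sums of TPM compared between lines do. With 2 libraries against 2, an exact two-sided permutation test cannot go below p = 0.333, so no test of the shares or sums was made. The order by length differs from the order by reads because the transcript length implied by the authors' counts and FPKM was 8969 to 8982 bases for ME2 and 2091 to 2105 bases for ME3 (in Cal51R).

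**Figure D2:**
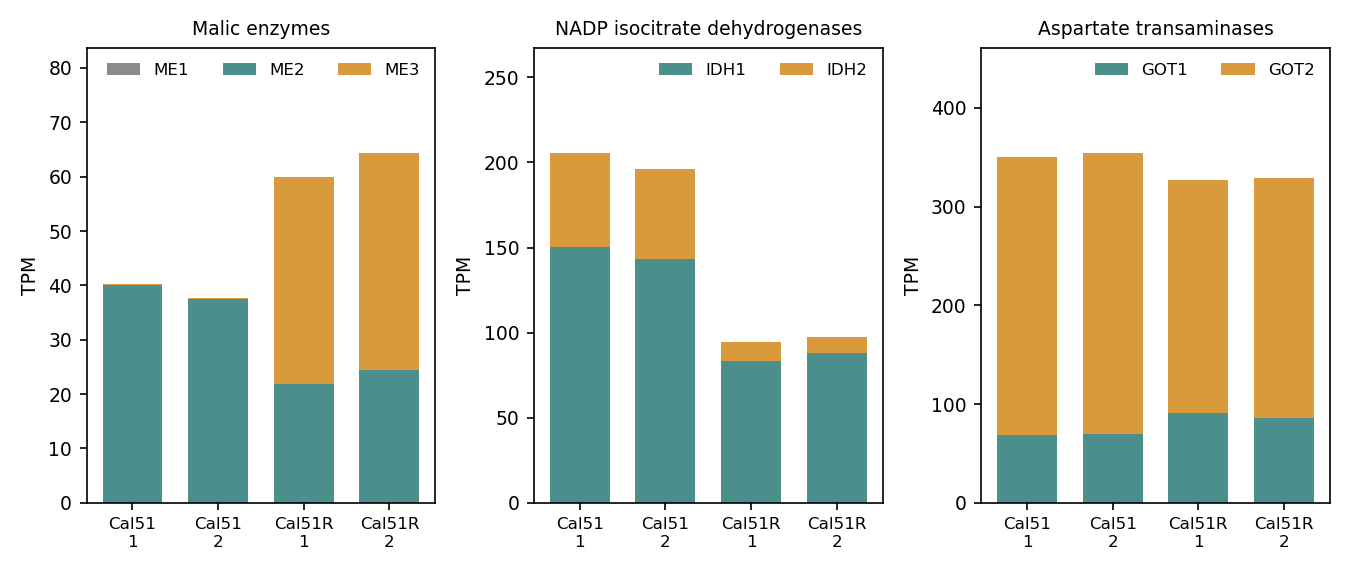
Stacked TPM of the malic enzyme, NADP isocitrate dehydrogenase and aspartate transaminase genes, 1 bar per library, each panel with its own axis from 0. ME3 is all but absent from the Cal51 bars and makes up 62.9% of the Cal51R bars on average; the IDH2 share falls from 27.0% to 10.7%.

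The rise of ME3 was not shared by all genes around it. Of 13 other genes in the table whose lower RefSeq coordinate lies within 1 Mb of that of ME3, 11 were tested. Of these 6 were higher, 4 lower and 1 did not pass, against 35.3% higher and 35.5% lower among all genes tested. PRSS23, a serine protease gene 118 kb beyond the upper end of ME3, the end where its transcription starts, rose from 3.56 ± 0.646 to 304 ± 0.608 CPM (log2 fold change 6.43, standard error 0.11, adjusted p = 1.14e-16 by edgeR). CCDC81, 11.8 kb below the lower end, rose by 1.96 on the log2 scale from a low level (0.31 to 1.2 CPM). The other genes that passed higher were HIKESHI, FZD4, CREBZF and SYTL2, with log2 fold changes of 0.32, 0.35, 0.32 and 1.2. EED, which encodes a Polycomb subunit, PICALM, TMEM135 and TMEM126B had log2 fold changes of -0.36, -0.38, -0.50 and -0.24, and TMEM126A did not pass (-0.06). The calls of CREBZF, HIKESHI, FZD4, SYTL2, EED and TMEM126B were each lost under at least 1 alternative.

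The 3 genes most like ME3 over the 4 libraries, by the root mean square difference of log2(CPM + 0.5) among 12747 genes, were MTTP (0.152), SH3RF3 (0.247) and NPNT (0.250). These 3 genes had at most 0.295 CPM in each Cal51 library and 28.0 to 36.9 CPM in those of Cal51R, and the measure says no more than that. The same measure for IDH2, which had the largest fall, gave ST3GAL5 (0.0625), ZIC2 (0.105) and OSBPL1A (0.168).

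Of the isocitrate dehydrogenases, IDH2 (gene 3418, chromosome 15, 90083045 to 90102468, minus strand) was covered by 931 and 813 reads in Cal51 and by 171 and 153 in Cal51R. In CPM this was 45.8 and 47.3 against 9.06 and 7.10. The Cal51R libraries were far below those of Cal51 and differed from each other more than those of Cal51 did. IDH2 fell 5.79-fold (log2 fold change -2.53, standard error 0.12, adjusted p = 1.09e-11 by edgeR), and 6.59% of the genes tested had a larger change. Its implied transcript length was 1773 and 1810 bases in Cal51 and 1944 and 1936 bases in Cal51R. Single transcripts are not resolved in the gene table. The promoter table gives 1 window for IDH2, whose start lies inside the gene's span, and it is not shown.

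IDH1 (gene 3417, chromosome 2, 208236227 to 208255071, minus strand) had 160 and 160 CPM in Cal51 and 79.2 and 78.5 CPM in Cal51R. The libraries of each line nearly coincided and the lines did not overlap. It fell 2.03-fold (log2 fold change -1.02, standard error 0.07, adjusted p = 2.89e-09 by edgeR). In TPM, IDH1 was 2.72 and 2.70 times IDH2 in Cal51 and 7.49 and 9.38 times in Cal51R, so the IDH2 share of the pair went from 27.0% ± 0.141 to 10.7% ± 1.52. The pair summed to 201 ± 6.84 TPM in Cal51 and 95.9 ± 2.40 TPM in Cal51R. With ME1 and ME3 added, the malic and isocitrate enzymes linked to NADP alone summed to 201 ± 6.82 and 135 ± 3.67 TPM. ME3 made up 0.0676% ± 0.0269 and 28.9% ± 0.125 of that sum. ME2, which can use NAD or NADP, was left out of it, with 38.8 ± 1.82 TPM in Cal51 and 23.1 ± 1.85 TPM in Cal51R. These sums are of RNA, which does not measure the amount or activity of the enzymes.

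**Figure D3:**
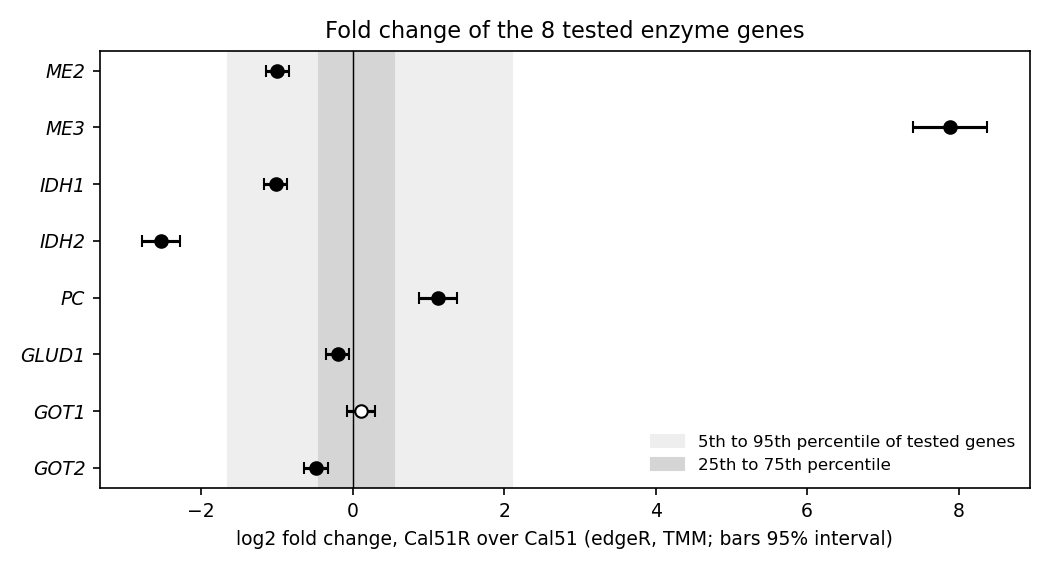
Log2 fold change of the 8 tested genes with 95% intervals built from the F statistic of edgeR. Filled points passed an adjusted p of 0.05. For ME3 the interval drawn is narrower than its counting interval. Grey bands give the spread over all tested genes, from -1.64 at the 5th to 2.11 at the 95th percentile. ME3 lies above that band, IDH2 below it, and the GOT1 interval spans 0.

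PC (gene 5091, chromosome 11, 66848420 to 66958383, minus strand) was covered by 219 and 225 reads in Cal51 and by 512 and 538 in Cal51R. In CPM this was 10.8 and 13.1 against 27.1 and 24.9. Both Cal51R libraries were above both Cal51 libraries. PC rose 2.19-fold (log2 fold change 1.13, standard error 0.12, adjusted p = 3.07e-07 by edgeR), with 0.98 to 1.26 when each library was left out. In TPM it was 6.28 ± 0.693 in Cal51 and 16.1 ± 0.339 in Cal51R. The gene LRFN4 lies within the span of PC on the other strand, at chromosome 11, 66857064 to 66860475, and was covered by 824 and 693 reads in Cal51 and by 508 and 510 in Cal51R. No source used here states that counting used strand, so reads from places where both are transcribed cannot be told apart.

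GLUD1 (gene 2746, chromosome 10, 87050202 to 87094843, minus strand) was abundant in both lines, with 254 and 255 CPM in Cal51 against 225 and 218 CPM in Cal51R. Both Cal51R libraries were lower, by a small margin. It passed as lower by 0.20 on the log2 scale (log2 fold change -0.20, standard error 0.07, adjusted p = 0.0199 by edgeR), and this call depended on the processing. Scaled by library totals alone, its log2 fold change was 0.00056 (adjusted p = 0.995 by edgeR), with the replicate number as a block it was -0.20 (adjusted p = 0.108 by edgeR), and over 13 alternatives the adjusted p ran from 0.0125 to 0.997. It did not pass without Cal51 replicate 1, without Cal51 replicate 2 or without Cal51R replicate 2 either (edgeR adjusted p = 0.127, 0.135 and 0.0576). In TPM GLUD1 was 163 ± 5.78 and 168 ± 4.73. The near-identical copy GLUD2, with which reads can be shared, was covered by 2 and 2 reads in Cal51 and by 6 and 6 in Cal51R. The span of GLUD1 also touches that of SHLD2.

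Of the aspartate transaminases, GOT2 (gene 2806, chromosome 16, 58707131 to 58734316, minus strand) was the most abundant of the 9 genes per length in both lines. It had 312 and 333 CPM in Cal51 and 235 and 225 CPM in Cal51R. The lines did not overlap, and GOT2 fell 1.40-fold (log2 fold change -0.49, standard error 0.07, adjusted p = 1.85e-05 by edgeR). With library totals it was lower by less (log2 fold change -0.29; edgeR adjusted p = 0.0014), as it was on log2(FPKM + 1) (-0.28; limma adjusted p = 0.00232), and the adjusted p ran from 5.22e-10 to 0.00259 over the alternatives.

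GOT1 (gene 2805, chromosome 10, 99396870 to 99430624, minus strand) had 61.8 and 66.5 CPM in Cal51 and 73.3 and 65.1 CPM in Cal51R. The libraries of the lines overlapped. The log2 fold change was 0.11 with a 95% interval of -0.07 to 0.29, and GOT1 did not pass (adjusted p = 0.268 by edgeR). With library totals it passed as higher by 0.31 (adjusted p = 0.00366 by edgeR), while the median gene moved by 0.20 with this scaling, and the adjusted p ran from 0.00245 to 0.875 over the alternatives. In TPM, GOT2 was 4.11 and 4.06 times GOT1 in Cal51 and 2.61 and 2.81 times in Cal51R. The GOT1 share of the pair went from 19.7% ± 0.121 to 27.0% ± 1.06, higher in both Cal51R libraries, while the pair summed to 352 ± 3.05 and 328 ± 1.75 TPM.

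In TPM the order of the 9 genes in Cal51 was GOT2 (283 ± 2.03), GLUD1 (163 ± 5.78), IDH1 (147 ± 5.28), GOT1 (69.3 ± 1.03), IDH2 (54.1 ± 1.56), ME2 (38.8 ± 1.82), PC (6.28 ± 0.693), ME3 (0.135 ± 0.0495) and ME1 (0.0150 ± 0.0212). No neighbours in that order overlapped between libraries, but ME3 and ME1 were at or under the detection limit there and could not be ordered. In Cal51R it was GOT2 (239 ± 4.74), GLUD1 (168 ± 4.73), GOT1 (88.4 ± 2.99), IDH1 (85.6 ± 3.60), ME3 (39.1 ± 1.23), ME2 (23.1 ± 1.85), PC (16.1 ± 0.339), IDH2 (10.3 ± 1.2) and ME1 (0.0300 ± 0.0424). There GOT1 and IDH1 overlapped and could not be ordered. ME3 moved from above 16.5% of the genes in the table to above 70.8%, and IDH2 from above 79.6% to above 43.5%. The 6 genes of mitochondrial enzymes summed to 546 ± 6.39 TPM in Cal51 and 496 ± 11.01 TPM in Cal51R, and the 3 of cytosolic enzymes to 216 ± 4.28 and 174 ± 0.651 TPM. Sums of TPM carry no TMM factor, so their size between lines depends on scaling. Library totals in place of TMM moved the median gene by 0.20 on the log2 scale.

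**Figure D4:**
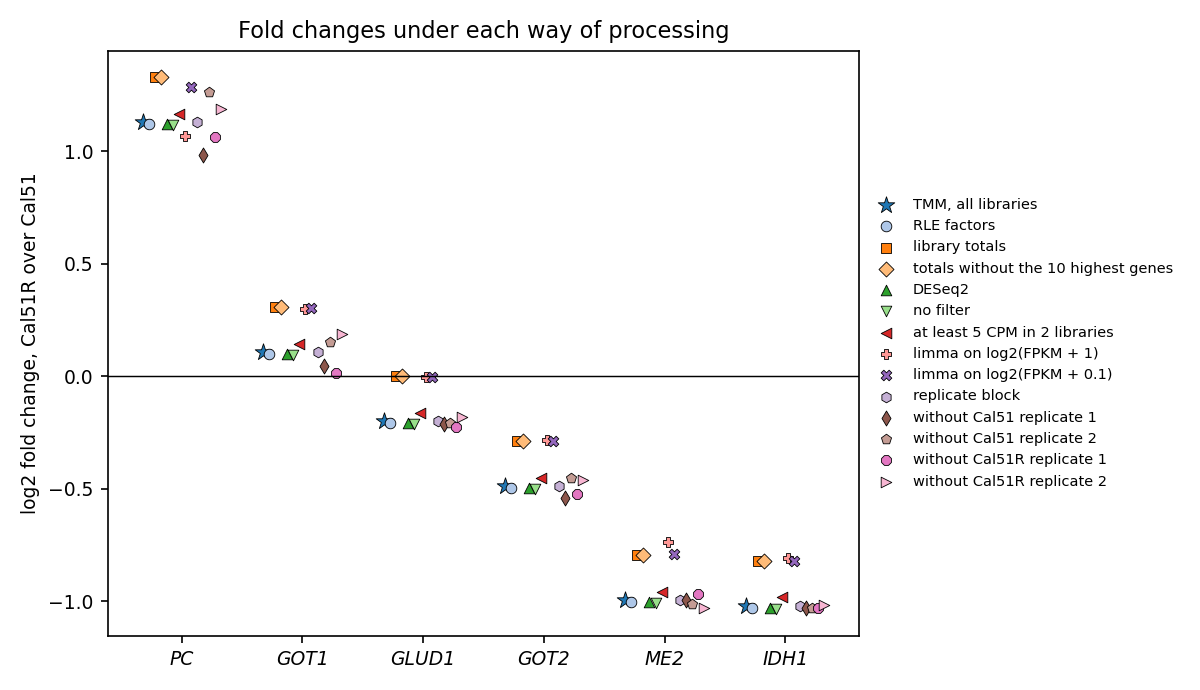
Log2 fold change of 6 of the genes under TMM scaling with all libraries (star) and under each alternative. PC, GOT2, ME2 and IDH1 keep their side of 0, GLUD1 moves from -0.20 to about 0 with library totals or FPKM, and GOT1 runs from 0.02 to 0.31.

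The genes around these enzymes were described by 7 pathway lists, with 81 distinct genes tested. Of these 65 passed, 19 higher and 46 lower, or 80.2%. Among all genes tested 70.8% passed, with 35.3% higher and 35.5% lower. The counts of each list below are to be read against these shares, and no list was tested against them. The median log2 fold change was -0.34 for the list genes and 0.02 for all genes tested. Directions of small changes depend on scaling. With library totals 26 list genes passed higher and 36 lower, and over all genes 64.7% of those that passed were higher, against 49.9%.

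Of 17 other TCA cycle enzyme genes, 14 fell, 0 rose and 3 did not pass, with a median log2 fold change of -0.36. FH, fumarate hydratase, which makes malate, fell from 173 ± 2.59 to 82.7 ± 1.43 CPM, 2.1-fold. MDH2, the mitochondrial malate dehydrogenase, fell from 401 ± 26.2 to 213 ± 16.2 CPM, 1.88-fold. MDH2 oxidises malate, the substrate of the malic enzymes. At an unadjusted p under 0.05, and by DESeq2, also 0 rose, but with library totals 8 of the 17 fell and 1, SUCLA2, rose. The subunits of the NAD-dependent isocitrate dehydrogenase were not moved alike: IDH3A and IDH3B had log2 fold changes of -0.79 and -0.49, and IDH3G did not pass (-0.08; edgeR adjusted p = 0.52).

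Of 14 genes of pyruvate entry, 6 fell and 2 rose, with a median of -0.21. PDP1, a phosphatase that activates pyruvate dehydrogenase, fell 2.70-fold, from 45.1 ± 2.30 to 16.7 ± 0.0323 CPM. PDK1, a kinase that inactivates it, fell 2.43-fold. PCK2, which turns mitochondrial oxaloacetate, the product of PC, into phosphoenolpyruvate, rose 2.52-fold, from 122 ± 0.720 to 307 ± 36.4 CPM. PDK2 rose 1.3-fold, but did not pass by DESeq2 (adjusted p = 0.0598) or when Cal51 replicate 1 was left out (adjusted p = 0.146 by edgeR, with 0.000178 to 0.146 over the alternatives). With library totals 4 rose and 6 fell.

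Of 18 genes of glutamine and glutamate use, 9 rose and 8 fell, with a median of 0.18. PYCR1, which makes proline from a product of glutamate, rose 2.24-fold, and GPT2, the mitochondrial alanine transaminase, which like GLUD1 makes 2-oxoglutarate from glutamate, rose 1.93-fold, from 91.2 ± 1.37 to 176 ± 11.7 CPM. GLUL, glutamine synthetase, fell 3.93-fold, from 669 ± 8.30 to 170 ± 2.97 CPM. CTPS1, a CTP synthetase that uses glutamine as its amino donor, fell 7.90-fold, from 361 ± 0.172 to 45.7 ± 0.250 CPM.

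Of 9 tested genes for cytosolic malate dehydrogenase and mitochondrial carriers, 7 fell and 0 rose, with a median of -0.58. SLC25A11, the malate and 2-oxoglutarate carrier of the malate-aspartate shuttle, fell 2.01-fold, from 106 ± 8.38 to 52.6 ± 5.20 CPM. SLC25A18, a mitochondrial glutamate carrier, fell from 8.70 ± 0.198 to 0.802 ± 0.216 CPM. MDH1, the cytosolic malate dehydrogenase, had a log2 fold change of -0.58, and SLC25A12, an aspartate and glutamate carrier, did not pass (0.07). DESeq2 also called 0 higher, 1 gene was higher at an unadjusted p under 0.05, and with library totals 6 fell and 2 rose.

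Of 11 tested genes of other enzymes that make NADPH or NADP, 6 rose and 3 fell, with a median of 0.23. ALDH1L2, a mitochondrial enzyme of folate metabolism that makes NADPH, rose 3.74-fold, from 49.0 ± 1.34 to 183 ± 11.4 CPM. MTHFD2L, another mitochondrial folate enzyme, rose 2.87-fold. The NAD kinase genes NADK and NADK2, whose enzymes make NADP in the cytosol and in mitochondria, fell 1.53-fold and 1.51-fold.

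Of 10 genes of the aspartate use list, not all of whose enzymes consume aspartate, 6 fell and 2 rose, with a median of -0.66. ASNS, which makes asparagine from aspartate and glutamine, rose 4.36-fold, from 96.6 ± 3.75 to 421 ± 13.8 CPM. PAICS, in purine synthesis, and CAD, in pyrimidine synthesis, fell 2.16-fold and 1.81-fold. ASPA, near the limit of detection, had 0.438 ± 0.203 and 0.941 ± 0.506 CPM and passed (adjusted p = 0.0478 by edgeR), a call lost with DESeq2 (adjusted p = 0.23), with the replicate block, and without Cal51 replicate 1 or Cal51R replicate 2 (edgeR adjusted p = 0.0558, 0.33 and 0.589; 0.00703 to 0.589 over the alternatives). D2HGDH, whose enzyme oxidises D-2-hydroxyglutarate to 2-oxoglutarate, fell 1.5-fold.

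**Figure D5:**
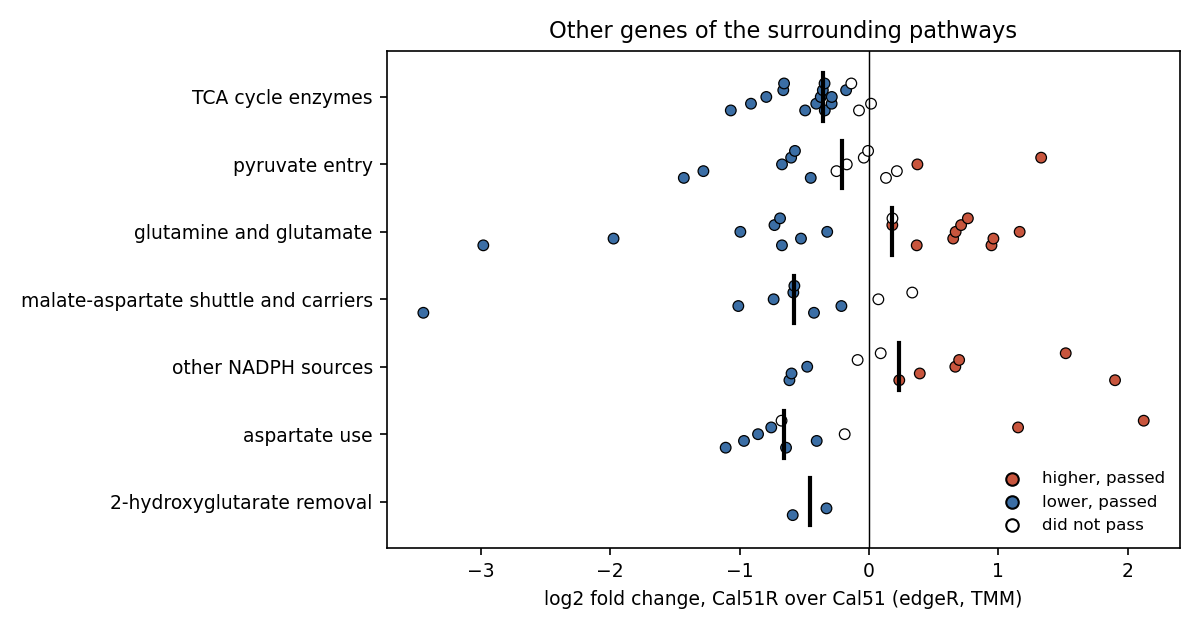
Log2 fold change of each tested gene of the 7 pathway lists (points) with the median of each list (bar). All called TCA cycle and carrier genes lie left of 0 under TMM scaling (with library totals 1 and 2 genes of these lists passed as higher), while glutamine and NADPH genes lie on both sides.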

How the data were processed

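Polyadenylated RNA of 2 Cal51 and 2 Cal51R libraries was sequenced as DNA nanoballs, per the labels' protocols. Per the submitters' processing notes, RSEM 1.2.8, Bowtie2 2.2.5, HISAT2 2.1.0 and DESeq were among the tools and hg38 was the build, with no step stated. The annotation used is not stated in these sources. Per the file headers, the authors deposited expected counts, FPKM and TPM for each library. Expected counts were rounded (27.0% to 31.8% were already whole). The authors' FPKM served alternatives and implied lengths, and the authors' TPM served levels per length. Per length means per transcript length as the authors estimated it.

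The test was edgeR 4.0.16 (R 4.3.3) quasi-likelihood with TMM scaling, filterByExpr (minimum count 10) and a single model term for the line; 13674 genes were tested and 3541 left out. P-values were adjusted by Benjamini-Hochberg over all genes tested. Standard errors were taken as the size of the log2 fold change over the square root of F, and the intervals of log2 fold changes were built from them. Where a line has few reads, as for ME3 in Cal51, these are too narrow. The common coefficient of variation between replicates that edgeR fitted over all genes, beyond counting noise, was 5.83%. Single genes can vary more. Counting intervals are exact (Clopper-Pearson, 95%). TMM factors were 0.927 to 1.09.

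The alternatives comprised RLE factors, DESeq2 1.42.0, scaling by library totals, totals without the 10 highest genes, no filter, at least 5 CPM in 2 libraries, limma 3.58.1 on log2(FPKM + 1) and log2(FPKM + 0.1) for genes with at least 1 FPKM in 2 libraries, the replicate number as a block and the omission of each library. The 9 genes and the lists were chosen with earlier results of these data known. From each list up to 2 genes in each direction with the smallest p are named, and others were added after their values were seen (SUCLA2, IDH3A, IDH3B, IDH3G, MDH1, SLC25A12); a few list genes are not reported here. Neighbours were taken within 1 Mb by RefSeq start, and the 3 most alike genes among those with a mean of at least 1 CPM. RefSeq GRCh38.p14 gave positions and promoter sequences, matched on gene ID. The fits were also run on simulated counts in which a small part of the genes changed, in both directions. In the data 70.8% of the genes tested passed, so the simulation does not bear on the dependence on scaling.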

Additional observations from a re-analysis of the deposited data

How the results depend on the processing

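Over 13 alternatives, ME2, ME3, IDH1, IDH2, PC and GOT2 kept their direction and passed in each. ME3 ranged from 4.08 to 8.30 (log2 fold change), PC from 0.98 to 1.33, IDH2 from -2.72 to -2.22, IDH1 from -1.03 to -0.81, ME2 from -1.03 to -0.74 and GOT2 from -0.54 to -0.28. The count of the 9 genes called was 6 or 7 in all of them. GLUD1 turned to 0.00056 with library totals and to 0.00028 with totals without the 10 highest genes, and did not pass with these, on log2(FPKM + 1) (-0.00106), on log2(FPKM + 0.1) (-0.00107) or with the replicate block (-0.20). Leaving out each library gave GLUD1 -0.23 to -0.18, with 3 of 4 not passing. GOT1 passed with library totals (0.31), with totals without the 10 highest genes (0.31), on log2(FPKM + 1) (0.30) and on log2(FPKM + 0.1) (0.31). Library totals moved the median gene by 0.20 and log2(FPKM + 1) moved it by 0.19; on log2(FPKM + 1) 63.7% of called genes were higher. The TCA cycle count was 9 in place of 14 with library totals, with totals without the 10 highest genes and on both FPKM scales. The replicate numbers are not stated to pair libraries, and the deviations of same-numbered libraries correlated with r = -0.23. With the replicate block 8905 genes were called in place of 9685, and with the numbers crossed, a fit chosen after seeing the data, 10657. The cause of the calls lost or gained was not tested. With at most 3 reads per library, depth limits ME1 in both lines and ME3 in Cal51.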
